A study of Mus musculus with 6 samples.

Results

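The genes described here are 10 members of the EGF receptor system, comprising the 7 ligand genes Areg, Ereg, Hbegf, Tgfa, Egf, Btc and Nrg1 and the 3 receptor genes Egfr, Erbb2 and Erbb3. They were chosen by name from a table of 55416 mouse genes. No measured value entered the rule, but earlier results of these data were known when the names were chosen. Crypts from the duodenum and jejunum of 3 C57BL/6 mice, labelled WT, were cultured as organoids for 5 days with 50 μg/ml low-density lipoprotein (LDL) or with PBS, so that each mouse gave 1 library per treatment. The animal identifier of mouse 3 differs in form from those of mice 1 and 2, although the genotype label of all 3 is WT, so values without mouse 3 are also given. The 10 symbols matched 11 identifiers, because Nrg1 has a second entry that held no read in any library.

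EGF family ligands are made as membrane-anchored precursors that proteases such as ADAM17 release, and they bind receptor tyrosine kinases that pair at the cell surface and signal through RAS and the MAP kinases. EGFR binds amphiregulin, epiregulin, heparin-binding EGF, TGF-α, EGF and betacellulin, whereas ErbB3 binds neuregulins and has little kinase activity, and ErbB2 has no known ligand and serves as a partner of the other receptors. In the small intestine, EGF receptor signaling sustains the division of stem cells, and Paneth cells are a known source of EGF in the crypt.

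The promoter of Areg, the ligand gene with the largest difference between treatments, and that of Btc, a neighbouring ligand gene with a smaller one, are shown for comparison. Each is 250 bases before the RefSeq transcription start, read 5′ to 3′ on the gene's strand and located in GRCm39 at chr5:91287208-91287457 (plus strand) for Areg and at chr5:91550854-91551103 (minus strand) for Btc. Capitals mark the matches to TGACGTCA, the cyclic AMP response element, and to TATAAA, the TATA box.
Areg: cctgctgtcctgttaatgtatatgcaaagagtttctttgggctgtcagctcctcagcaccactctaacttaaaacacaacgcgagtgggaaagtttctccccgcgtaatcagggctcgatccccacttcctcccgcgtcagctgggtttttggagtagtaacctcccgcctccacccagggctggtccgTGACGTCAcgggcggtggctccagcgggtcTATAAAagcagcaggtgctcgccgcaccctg
Btc: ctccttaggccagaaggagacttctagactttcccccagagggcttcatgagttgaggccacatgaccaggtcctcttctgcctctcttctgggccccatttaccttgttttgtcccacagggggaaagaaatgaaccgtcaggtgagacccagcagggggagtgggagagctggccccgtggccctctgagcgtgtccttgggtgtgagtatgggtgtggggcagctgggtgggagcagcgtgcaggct
The Areg window held TGACGTCA from -61 to -54 and TATAAA from -31 to -26, counted back from the start site. Of 32851 promoter windows of the same length, 1.55% held TGACGTCA and 12.4% held TATAAA on either strand. The letters TGANTCA of an AP-1 site (6.75% of windows) and GGAATG of a TEAD site (12.6%) were also searched on both strands, and the Btc window held none of these 4 motifs. RefSeq windows matched 6 of the 10 members (Areg, Tgfa, Egf, Btc, Egfr and Erbb2), and apart from the Areg matches the search found only GGAATG in Erbb2, from -88 to -83. These matches are a description of letters in a window and show no binding.

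Values below are normalized counts, that is, reads counted on a gene divided by the size factor of the library, unless stated otherwise. The libraries held 22061545 to 31073360 reads on genes, and the LDL-treated library of mouse 1 stood apart with reads on 35781 genes, against 29285 to 32751 in the other 5. Summed markers of epithelium (8 genes, including Epcam, Cdh1 and Vil1) were 87236 to 91263 with PBS and 98788 to 131889 with LDL. The keratin genes Krt8 (16344 with PBS and 29010 with LDL, as means), Krt18 (5730 and 11185) and Krt19 (14247 and 21705) held most of this difference, while Epcam was lower with LDL in all 3 mice (23166 and 21355). Summed markers of stromal cells (12 genes, including Col1a1 and Pdgfra) were 45.6 to 87.8 with PBS and 31.8 to 104 with LDL, with 10 of 12 at a mean under 10. Summed markers of immune cells (8 genes, including Ptprc and Cd68) were 200.3 to 269 with PBS and 242 to 394 with LDL, with 4 of 8 at a mean under 10, and those of tuft cells (8 genes, including Dclk1) were 299 to 389 with PBS and 213 to 526 with LDL. Avil alone held 304 and 305 of the tuft sum in the LDL-treated libraries of mice 1 and 3. Of the 7 tuft markers in the tests below, 5 were lower with LDL and 2 higher. No marker of these lists was at 0 in all libraries. In bulk libraries, fewer cells of a type and less RNA per cell cannot be told apart, and the part of cell composition in the results was not tested.

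To determine whether the EGF receptor system differed between LDL- and PBS-treated organoids, limma was run on log2(normalized count + 1) over 18459 genes whose mean was 10 or more. Genes past 1.5-fold with an adjusted p-value below 0.05 were called. Because both treatments were applied to organoids of the same mice, the fit was repeated with the mouse as a block.

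Areg, Ereg, Hbegf, Btc and Tgfa, which encode 5 of the EGFR ligands, and the receptor genes Egfr and Erbb2 were higher in every LDL-treated library than in any PBS-treated library. Egf was lower in every LDL-treated library, and Erbb3 and Nrg1 overlapped between the treatments. The ratio of the means was 7.57 for Areg, 6.49 for Ereg, 3.11 for Hbegf, 2.37 for Btc, 1.60 for Tgfa, 1.44 for Egfr, 1.30 for Erbb2 and 0.636 for Egf. Nrg1 was under the filter on low values, which left 9 of the 10 members tested. Values did not overlap and were higher with LDL for 7 of these 9, against 11.9% of all genes tested, and lower for 1, against 12.3%.

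Without the mouse block, limma called 0 members higher (0.878% of all genes tested were) and 0 lower (0.395%). At an unadjusted p-value under 0.05 and more than 1.5-fold, 5 members were higher (6.34% of all genes) and 1, Egf, was lower (4.2%). With the mouse block, limma called Areg, Ereg, Hbegf, Btc and Tgfa higher (5 of 9, against 5.68% of all genes) and no member lower (3.46%). On recovered reads without the block, DESeq2 called the same 5 members higher (4.58% of all genes) and edgeR called 1, Areg (1.01%). With the block, both called these 5, against 5.31% of all genes in DESeq2 and 6.34% in edgeR, and neither tool called a member lower in any of these fits. The median log2 fold change was 1.33 for the 6 ligand genes tested and 0.37 for the 3 receptor genes, beside -0.02 over all genes tested. The LDL-treated library of mouse 2 was the lowest of the LDL group for the 5 called ligands. Without this library and without the block, 6 members, these 5 and Egfr, were called higher, against 6.39% of all genes. Without both libraries of mouse 3, the unblocked fit called no gene at all. The blocked fit without mouse 3 called Areg and Hbegf (1.44% of all genes higher and 0.417% lower), whereas Ereg, Btc and Tgfa were no longer called (adjusted p = 0.0851, 0.0929 and 0.114, limma). Without mouse 1, the blocked fit called all of these but Tgfa, at a log2 fold change of 0.54 (4.11% of all genes higher).

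**Figure D1:**
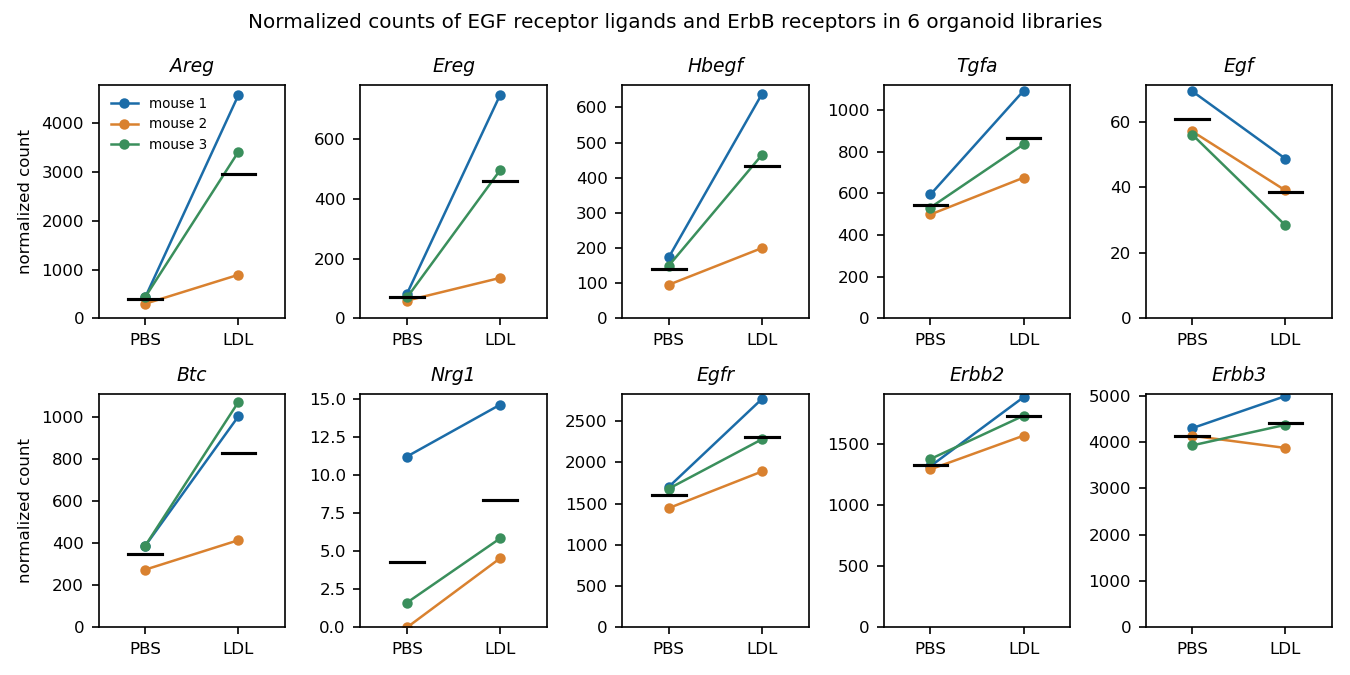
Each panel gives the normalized counts of 1 gene (vertical axis, from 0) in PBS- and LDL-treated organoids, with lines joining the libraries of a mouse and black bars at the means of 3 mice. Areg went from 435, 301 and 440 to 4581, 895 and 3418, and Egf was the member that was lower in all 3 mice.

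Areg encodes amphiregulin and lies on chromosome 5 of GRCm39 (91287451 to 91296291, plus strand). Its normalized counts in mice 1, 2 and 3 were 435, 301 and 440 with PBS and 4581, 895 and 3418 with LDL. The lowest LDL-treated library was above the highest PBS-treated library, and mouse 2 had the lowest value of both groups. Within the mice, LDL over PBS was 10.5-fold, 2.98-fold and 7.78-fold. The log2 fold change was 2.64 ± 0.54 (SE, n = 3 per group, adjusted p = 0.0626, limma), with a 95% confidence interval of 1.39 to 3.89. The block narrowed the interval to 1.97 to 3.31 (adjusted p = 0.00138, limma). Without the LDL-treated library of mouse 2 the log2 fold change was 3.35. Of the genes tested, 151 had a larger log2 fold change than Areg.

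Ereg encodes epiregulin, a ligand of EGFR and ErbB4, and lies next to Areg (chromosome 5, 91222157 to 91241505, plus strand). Its normalized counts were 82.7, 59.6 and 70.0 with PBS and 748, 136 and 496 with LDL. The groups were separate, and mouse 2 was again lowest in both. For Ereg the log2 fold change was 2.38 ± 0.55 (SE, n = 3 per group, adjusted p = 0.0822 without and 0.00392 with the block, limma), and it was 3.10 with LDL replicate 2 left out. The call of Ereg with the block was lost without mouse 3. The noncoding gene Gm19610 spans Ereg on the opposite strand and held 28 reads over all libraries.

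Hbegf encodes heparin-binding EGF, which also binds heparan sulfate, and lies on chromosome 18 (36637980 to 36649677, minus strand). Its normalized counts were 174, 95.7 and 149.8 with PBS and 638, 200.1 and 465 with LDL. The LDL-treated library of mouse 2 was closer to the PBS-treated library of mouse 1 than to the other LDL-treated libraries, but the groups did not overlap. For Hbegf the log2 fold change was 1.52 ± 0.42 (SE, n = 3 per group, adjusted p = 0.112 without and 0.00137 with the block, limma), and its folds within the mice were 3.68, 2.09 and 3.10.

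Btc encodes betacellulin, a ligand of EGFR and ErbB4 (chromosome 5, 91505120 to 91550883, minus strand). Its normalized counts were 388, 275 and 388 with PBS and 1004, 415 and 1072 with LDL. Mice 1 and 3 were nearly equal under both treatments, and mouse 2 was lower under both. LDL over PBS on the log2 scale was, for Btc, 1.14 ± 0.35 (SE, n = 3 per group, adjusted p = 0.135 without and 0.00431 with the block, limma).

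Tgfa encodes TGF-α (chromosome 6, 86172041 to 86252728, plus strand). Its normalized counts were 594, 498 and 532 with PBS and 1092, 675 and 834 with LDL. The groups did not overlap, although the LDL-treated library of mouse 2 was not far above the PBS-treated library of mouse 1. For Tgfa the log2 fold change was 0.65 ± 0.18 (SE, n = 3 per group, adjusted p = 0.107 without and 0.00618 with the block, limma), and its folds within the mice were 1.84, 1.35 and 1.57. The opposite-strand gene Gm43917 overlaps Tgfa and held 131 reads over all libraries.

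Egf encodes EGF itself (chromosome 3, 129470410 to 129549093, minus strand). Its normalized counts were 69.4, 57.2 and 56.2 with PBS and 48.8, 39.1 and 28.4 with LDL. All LDL-treated libraries were below all PBS-treated libraries, at ratios of 0.703, 0.684 and 0.506 within the mice. The log2 fold change was -0.66 ± 0.26 (SE, n = 3 per group), and it passed the threshold neither without nor with the block (adjusted p = 0.203 and 0.0725, limma). In mice 1, 2 and 3, summed Paneth cell markers were 25149.5, 18303 and 29491 with PBS and 14435, 17427 and 16404 with LDL. Under both treatments, the order of the mice in this sum differed from their order in Egf. Of these 12 markers, 4 fell with the mouse block (Defa17, Defa24, Defa26 and Itln1) and 2 rose (Mmp7 and Pnliprp2), against 3.46% and 5.68% of all genes, while the lysozyme gene Lyz1 had a fitted log2 difference of -0.33 (adjusted p = 0.160 with the block, limma). The part of Paneth cells in the difference of Egf was not tested.

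Nrg1 encodes neuregulin 1, a ligand of ErbB3 and ErbB4 (chromosome 8, 32303906 to 33374825, minus strand). It had 11, 0 and 2 reads with PBS and 12, 5 and 7 reads with LDL, and a difference was not detectable at this depth. The library with 0 reads allows up to 3 reads, or 3.73 normalized counts, by counting error.

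**Figure D2:**
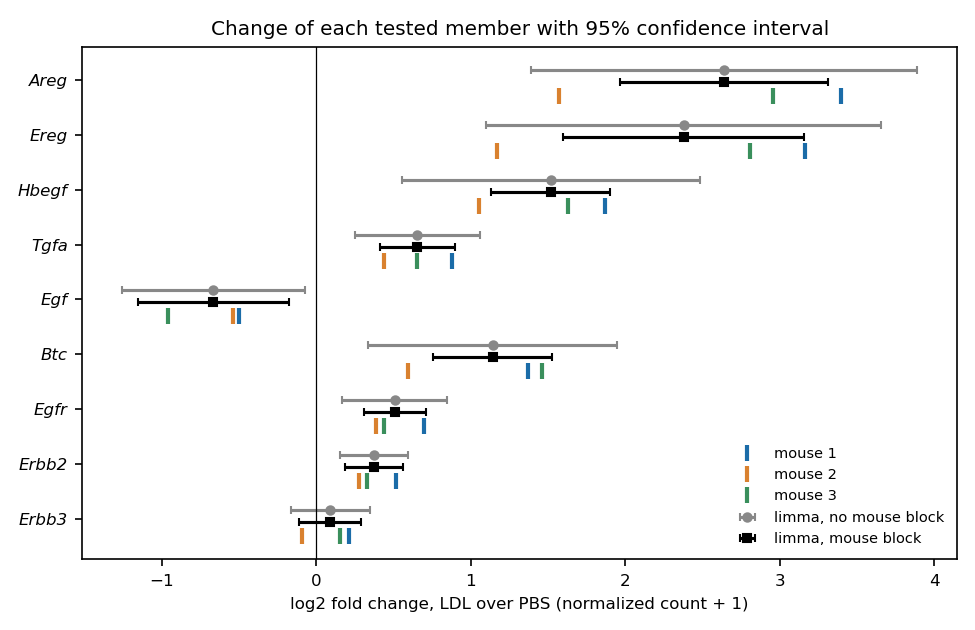
The log2 fold change of LDL over PBS (horizontal axis) is shown for the 9 members tested, with 95% confidence intervals from limma without (grey) and with (black) the mouse block and coloured ticks for the single mice. Areg and Ereg lie furthest to the right, at 2.64 and 2.38, and Egf alone lies below 0, at -0.66.

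Among the receptors, the means of Egfr and Erbb2 were higher with LDL by less than 1.5-fold, and Erbb3 was not separated by treatment. Egfr, the receptor of the 6 EGFR ligands measured here (chromosome 11, 16702198 to 16868158, plus strand), had 1704, 1446 and 1682 normalized counts with PBS and 2769.9, 1891 and 2281 with LDL. The groups did not overlap, and mouse 2 was lowest in both. Its log2 fold change was 0.51 ± 0.15 (SE, n = 3 per group, adjusted p = 0.122 without and 0.00798 with the block, limma). Within mice 1, 2 and 3 its folds were 1.63, 1.31 and 1.36. Egfr was called in the unblocked fit without LDL replicate 2 (log2 fold change 0.65, adjusted p = 0.00959, limma). In the blocked fit without mouse 3 its adjusted p-value was 0.119 (limma).

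Erbb2, the gene of the receptor without a known ligand (chromosome 11, 98303203 to 98328542, plus strand), had 1322, 1296 and 1381 normalized counts with PBS and 1888, 1572 and 1736 with LDL. These groups were also separate. Its log2 fold change was 0.37 ± 0.10 (SE, n = 3 per group, adjusted p = 0.101 without and 0.0199 with the block, limma). In the blocked fit its adjusted p-value was 0.204 without mouse 3 and 0.117 without mouse 1 (limma). At an adjusted p-value under 0.05 and any fold, limma with the block found 8.27% of all genes higher.

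Erbb3, the neuregulin receptor gene (chromosome 10, 128403392 to 128425811, minus strand), had 4301, 4137 and 3929 normalized counts with PBS and 4993, 3874 and 4373 with LDL. The LDL-treated library of mouse 2 was below all PBS-treated libraries, while those of mice 1 and 3 were above them. The log2 fold change was 0.09 with a 95% confidence interval of -0.16 to 0.35 (n = 3 per group, adjusted p = 0.704 without and 0.531 with the block, limma), so the interval does not reach a 1.5-fold change in either direction.

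To compare the members with each other, reads were divided by exon length and by the depth of the library (RPKM, with depth taken as all reads on genes). Among the ligands, Areg had the highest level in both treatments, at 12.5 ± 3.05 RPKM with PBS and 90.5 ± 54.2 RPKM with LDL (SD, n = 3). With PBS it was followed by Tgfa (3.08 ± 0.417 RPKM), Btc (3.00 ± 0.692 RPKM), Hbegf (1.07 ± 0.350 RPKM), Ereg (0.619 ± 0.129 RPKM), Egf (0.193 ± 0.031 RPKM) and Nrg1 (0.010 ± 0.015 RPKM). The ranges of Tgfa and Btc overlapped, as did those of Hbegf and Ereg. With LDL the order was Areg, Btc (6.91 ± 3.12 RPKM), Tgfa (4.76 ± 0.852 RPKM), Ereg (3.83 ± 2.37 RPKM), Hbegf (3.17 ± 1.46 RPKM), Egf (0.119 ± 0.021 RPKM) and Nrg1 (0.018 ± 0.010 RPKM), and each neighbouring pair from Btc to Hbegf overlapped. The receptors had the order Erbb3, Erbb2 and Egfr without overlap in either treatment, at 25.3 ± 1.84, 9.53 ± 0.713 and 5.42 ± 0.741 RPKM with PBS and 26.4 ± 2.44, 12.1 ± 0.983 and 7.54 ± 1.06 RPKM with LDL.

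The summed level of the 7 ligand genes was 20.5 ± 4.604 RPKM with PBS and 109 ± 61.7 RPKM with LDL (SD, n = 3), and LDL over PBS was 6.42-fold, 2.53-fold and 6.10-fold in mice 1, 2 and 3. The summed level of the 3 receptor genes was 40.3 ± 2.96 RPKM with PBS and 46.1 ± 4.35 RPKM with LDL, with folds of 1.09, 1.11 and 1.23. The folds of both sums use total reads as depth, not the size factors, so they are not comparable with the folds of normalized counts. In mouse 1, Erbb3 had 27.4 RPKM with PBS and 27.1 RPKM with LDL, but 4301 and 4993 normalized counts. Areg made up 60.6%, 59.1% and 62.8% of the ligand sum with PBS and 84.7%, 73.6% and 83.3% with LDL. The mean share of Tgfa was 15.3% with PBS and 5.72% with LDL although its own level was higher with LDL, and that of Btc was 14.6% and 7.05%. Ereg had 3.04% ± 0.26 with PBS and 3.39% ± 0.37 with LDL. Within the receptor sum, Erbb3 had 62.9% ± 1.79 with PBS and 57.4% ± 0.13 with LDL, and Egfr had 13.4% ± 1.02 and 16.3% ± 1.03 (SD, n = 3). These shares are descriptions and were not tested.

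**Figure D3:**
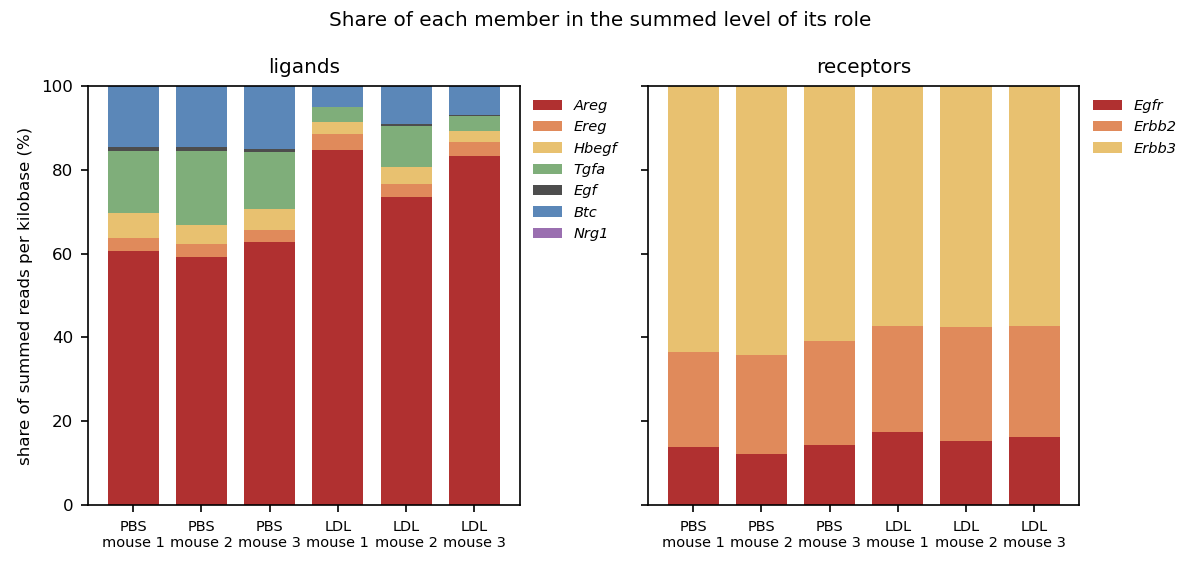
Stacked bars give the percent of the summed per-length level that each ligand gene and each receptor gene takes in every library. The share of Areg is 59.1% to 62.8% in the PBS-treated libraries and 73.6% to 84.7% in the LDL-treated libraries.

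Ereg, Areg and Btc lie together with Epgn, the gene of the EGFR ligand epigen, within 376 kb of chromosome 5. Ereg ends 45.9 kb before the start of Areg, and Btc lies 209 kb beyond Areg. Epgn, 39.1 kb before Ereg, had 4, 1 and 2 reads with PBS and 8, 2 and 12 reads with LDL and was under the filter. Mthfd2l, a neighbouring gene of a mitochondrial folate enzyme, had 461 ± 31.8 normalized counts with PBS and 426 ± 8.58 with LDL (log2 fold change -0.11, adjusted p = 0.612 without and 0.495 with the block, limma). The noncoding gene Gm19619 had 13.7 ± 1.03 and 29.2 ± 20.5 normalized counts and was not called in either fit. Parm1, on the far side of Btc, had 513 ± 107 normalized counts with PBS and 844 ± 329 with LDL, and it rose with the block although its groups overlapped (log2 fold change 0.66, adjusted p = 0.278 without and 0.0109 with the block, limma). These neighbours were taken for their position.

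**Figure D4:**
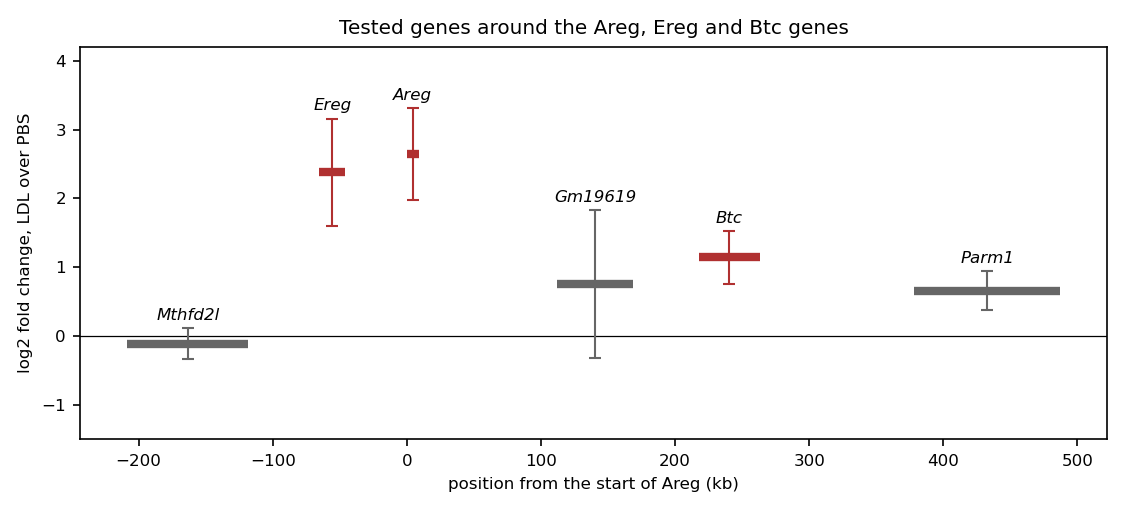
Tested genes around Areg are drawn by their distance from the start of Areg (kb, horizontal axis) and their log2 fold change of LDL over PBS (vertical axis), with 95% confidence intervals from limma with the mouse block. Ereg and Areg, 45.9 kb apart, stand at 2.38 and 2.64, Btc stands at 1.14 and Mthfd2l at -0.11.

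Over the 6 libraries, the genes whose log2 values were most like those of Areg were Cnksr1, Lrrfip1 and Pard6b (Pearson r = 0.999, 0.999 and 0.998 among 11911 genes with a mean of at least 100). For Egfr, they were Epb41l2, Tnfaip8 and Pkp4 (r = 0.998, 0.998 and 0.997). Since 449 genes for Areg and 420 for Egfr had r over 0.95, and since all points share the 2 treatments and the 3 mice, these values are a description.

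Among 69 other genes of the pathway, of which 64 were tested, limma called 2 higher and 0 lower without the block (0.878% and 0.395% of all genes) and 15 higher and 2 lower with it (5.68% and 3.46%), and the median log2 fold change was 0.18. The blocked fit without mouse 3 called 5 higher and 0 lower. Of the 15, 13 were on the list of MAPK feedback and response genes. Of the other ligands and receptor, Nrg4 was the only gene above the filter, at 0.27 on the log2 scale (adjusted p = 0.538, limma), and Erbb4, Epgn, Nrg2 and Nrg3 had means under 10.

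Of 9 ligand shedding genes tested, Rhbdf1, the gene of iRhom1, which escorts ADAM17 to the cell surface, had 459 ± 139 normalized counts with PBS and 910 ± 194 with LDL and rose with the block (log2 fold change 1.01, adjusted p = 0.0977 without and 0.000684 with it, limma). Timp3, which encodes an inhibitor of ADAM17, had 133 ± 11.8 and 70.1 ± 8.76 normalized counts and fell with the block (log2 fold change -0.91, adjusted p = 0.0543 without and 0.00795 with it, limma). For Adam17 itself the log2 fold change was 0.10 (adjusted p = 0.613 without and 0.488 with the block, limma). The other 6 genes were not called. Thus 1 of the 9 rose and 1 fell with the block, which is near the background of 5.68% and 3.46% of all genes. The median of the 9 was 0.17.

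Of 14 genes of receptor inhibition and turnover, 1 rose and 1 fell in limma with the block, which is near the background of 5.68% and 3.46% of all genes. With the block, DESeq2 and edgeR each called 2 of the 14 higher (5.31% and 6.34% of all genes). Each called 1 lower, beside 511 and 588 of 18459 genes. Sh3kbp1, the gene of an adaptor of CBL-mediated receptor endocytosis, had 46.9 ± 14.9 and 234 ± 159.6 normalized counts, with overlapping groups (log2 fold change 1.97, adjusted p = 0.155 without and 0.00640 with the block, limma). Lrig3, of a family of membrane proteins that regulate ErbB receptors, had 1235 ± 79.2 and 748 ± 149 normalized counts (log2 fold change -0.74, adjusted p = 0.0566 without and 0.00315 with the block, limma). The feedback inhibitor Errfi1 and the stem cell gene Lrig1 had log2 fold changes of 0.30 and 0.13 and were not called. Of 17 adaptor and MAPK cascade genes, 0 were called by limma, DESeq2 or edgeR without or with the block. Blocked limma called 5.68% of all genes higher and 3.46% lower. Of the 17, 0 had an unadjusted p-value under 0.05 with more than 1.5-fold change, and their median was -0.05. Values of 3 were higher with LDL without overlap (11.9% of all genes) and those of 5 were lower (12.3%). By less than 1.5-fold, Ksr1 was lower (log2 fold change -0.54, adjusted p = 0.00484 with the block, limma) and Hras higher (0.38, adjusted p = 0.0182 with the block, limma).

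All 23 MAPK feedback and response genes had a positive log2 fold change, with a median of 0.62, and 8789 of the 18459 genes tested had a positive one. Values of 10 of them did not overlap between the treatments and were higher with LDL (11.9% of all genes). Without the block, limma called Dusp5, a phosphatase of nuclear ERK, at 273 ± 29.9 and 521 ± 27.1 normalized counts (log2 fold change 0.94, adjusted p = 0.0175) and Ier3, an immediate early gene, at 64.7 ± 7.06 and 298 ± 129 (log2 fold change 2.08, adjusted p = 0.0353). With the block, 13 rose, against 5.68% of all genes. Those included the AP-1 genes Fosl1 (log2 fold change 3.10), Fos (1.25), Junb (0.77) and Jun (0.61), the ephrin receptor genes Epha2 (1.99) and Epha4 (1.67), the feedback inhibitor genes Spry1 (0.77) and Dusp4 (0.62), and Phlda1 (1.77), Egr1 (0.61) and the cyclin gene Ccnd1 (0.73). Limma did not call the remaining 10, among them Dusp6, Etv4, Etv5 and Myc. Dusp6 missed only the fold threshold (log2 fold change 0.58, adjusted p = 0.0267 with the block, limma). So did Etv4 (0.52, adjusted p = 0.0311 with the block, limma). Etv5 (0.11, adjusted p = 0.660) and Myc (0.37, adjusted p = 0.101) passed neither threshold in limma with the block. With the block, DESeq2 and edgeR each called 14 of the 23 higher (5.31% and 6.34% of all genes).

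**Figure D5:**
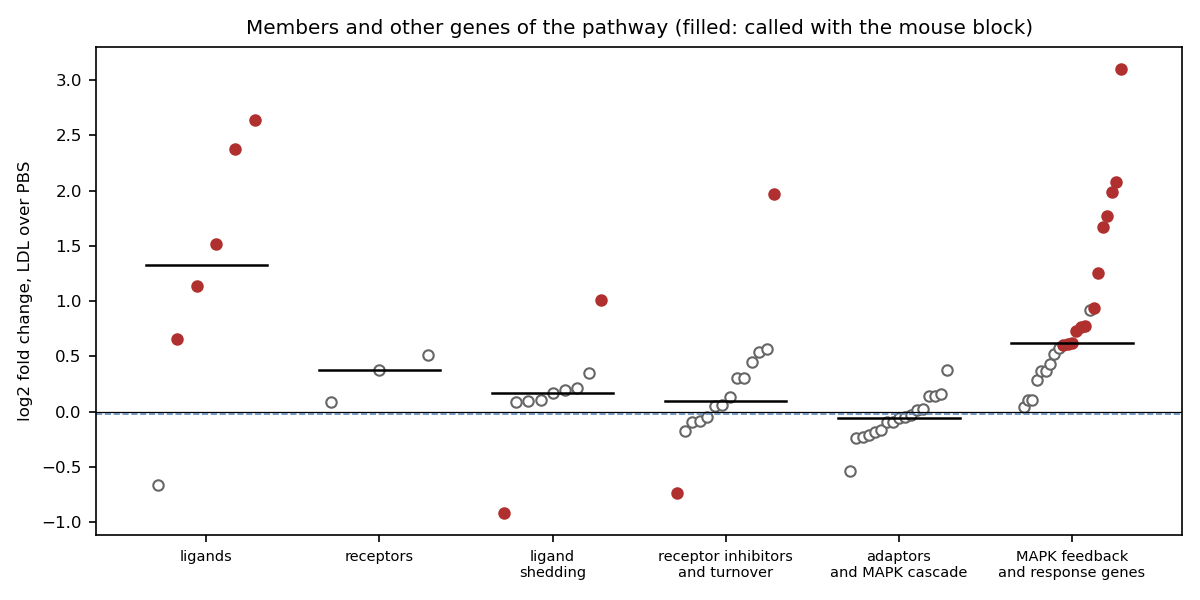
The log2 fold change of LDL over PBS (vertical axis) is shown for each tested gene of the members and of 4 lists of other pathway genes, with filled points for genes called by limma with the mouse block, black bars at list medians and a dashed line at the median of all genes tested. The median is 0.62 for MAPK feedback and response genes and -0.05 for adaptors and the MAPK cascade.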

How the data were processed

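RNA-Seq was analyzed in 6 libraries, from organoids of 3 mice under both treatments, grouped by their labels. The deposited signal values are normalized counts: the authors aligned reads with STAR to GRCm39, counted them per gene with featureCounts and divided them by 1 size factor per library. Whether counting used strand is not given in the sources used here, so reads of genes that overlap on opposite strands may not be separable. Dividing out the size factors gave whole reads for 100% of values (tolerance 0.01 reads), and all columns were used. Libraries ranged in depth from 22061545 to 31073360 reads on genes. Identifiers were matched to GENCODE M39, which held 54749 of 55416.

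Genes averaging 10 or more normalized counts were tested two-sided with limma 3.58.1 (eBayes with a trend) in R 4.3.3 on log2 values with a pseudocount of 1, which understates the fold of low genes, and p-values were adjusted over all of them by the Benjamini-Hochberg method. The study's methods gave DESeq2 and no mouse term, so the mouse block was an alternative. The animal identifiers in the labels pair the libraries, and after removing treatment means the libraries of a mouse correlated across genes with r from 0.42 to 0.48. An exact permutation test of 3 against 3 cannot go below p = 0.1 and was not used. DESeq2 1.42.0 and edgeR 4.0.16 were run on recovered reads as alternatives. Python 3.11.15 with numpy 2.4.6, matplotlib 3.10.9 and pandas 2.3.3 served for tables and plots. Promoter windows are RefSeq's, from a table of GRCm38.p6, placed in GRCm39 by exact match.

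The members and gene lists were chosen with earlier results of these data known, so no p-value was adjusted over a list alone and no set test was run. Named genes are all members, other pathway genes called in either fit, defining markers and the 3 genes most like the ligand and the receptor with the largest change. Others named (Adam17, Errfi1, Lrig1, Nrg4, Ksr1, Hras, the genes under the filter, the uncalled response genes and the neighbours on chromosome 5 and opposite strands) were added for their role, position or difference, after their values were seen. A further gene is not reported here.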

Additional observations from a re-analysis of the deposited data

How the results depend on the processing

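The count of members called higher was 0 in limma without the block. It was 5 with the mouse as a replicate block, 5 with the block and no filter on the mean (chosen after seeing the data), 3 with no filter alone, 5 with DESeq2 without or with the block, 1 with edgeR and 5 with edgeR and the block, and 5 at an unadjusted p-value. Of all 18459 genes tested, limma called 162 higher without the block and 1048 with it. DESeq2 called 846 and 981 without and with the block, and edgeR called 186 and 1171. At an unadjusted p-value, 1170 were higher. With no filter, 506 of 43039 genes were called higher and 245 lower, and with the block added 1060 were called higher. Leaving out 1 library or 1 blocked mouse gave 0 to 6 members higher and 0 to 1 lower. The 6 came with LDL replicate 2 left out, and the blocked fit gave 4, 5 and 2 without mice 1, 2 and 3. Over all genes, 18 to 1179 were called higher with 1 library left out, and the 1179 came without LDL replicate 2. The blocked fits without mice 1, 2 and 3 called 758, 1604 and 265 genes higher and 327, 1348 and 77 lower. The 1 member lower was Egf, in the blocked fit without mouse 2, and it was also the 1 lower at an unadjusted p-value. Beside the same counts over all genes, other pathway genes higher numbered 2 in limma without the block. They numbered 7 with no filter, 15 with the block, 13 with DESeq2, 17 with DESeq2 or edgeR and the block, 13 at an unadjusted p-value, 0 without both libraries of mouse 3 and 0 to 19 with 1 library or 1 blocked mouse left out. The 19 came with LDL replicate 2 left out, and the blocked fit gave 16, 18 and 5 without mice 1, 2 and 3. Other pathway genes lower numbered 0, and 2 with no filter, with the block, with DESeq2 without or with the block, with edgeR and the block and at an unadjusted p-value, 1 after quantile normalization and 0 to 3 with 1 library or 1 blocked mouse left out. Of all genes tested, limma called 73 lower without the block and 639 with it, and DESeq2 called 348 and 511. The number lower was 588 with edgeR and the block, 88 after quantile normalization and 776 at an unadjusted p-value. With 1 library left out it was 2 to 1133. Over all alternatives the members kept their direction, except Erbb3, whose log2 fold change went from -0.0011 (LDL-treated library of mouse 1 left out, adjusted p = 0.997, limma) to 0.18 over the fits without 1 library. Leaving out 1 library or mouse moved the log2 fold change of Areg between 2.18 and 3.35. Egf had no value at a mean of at least 50. The causes were not tested. Depth limits what can be said of Nrg1 and Epgn.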

Other observations

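The noncoding genes Egfros and Eldr lie opposite Egfr. Egfros had 94.9, 82.0 and 77.3 normalized counts with PBS and 193, 115 and 155 with LDL in mice 1, 2 and 3, and it rose with the mouse block (log2 fold change 0.83, adjusted p = 0.103 without and 0.0153 with the block, limma). Eldr had 313, 338 and 427 normalized counts with PBS and 165, 359 and 292 with LDL, and its groups overlapped (log2 fold change -0.46, adjusted p = 0.410 without and 0.132 with the block, limma). Egfr and Egfros were both higher in every LDL-treated library, whereas Eldr was lower with LDL in mice 1 and 3 and higher in mouse 2. If reads were counted without strand, those of Egfr and of these genes cannot be told apart where they overlap. Summed markers of enteroendocrine cells were 9680 to 15198 normalized counts with PBS and 7486 to 11975 with LDL, with 0 of 8 called by limma, DESeq2 or edgeR without or with the block and 0 at an unadjusted p-value under 0.05 with more than 1.5-fold change.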
